A study of Mus musculus with 2 samples.

Results

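The insulin-like growth factor (IGF) axis was followed here through 10 genes: the ligands Igf1 and Igf2, the receptor Igf1r, and the binding protein genes Igfbp1 to Igfbp7. Its members were all probe sets whose single gene symbol in the platform's annotation is one of these names, 27 probe sets of the 34945 with 1 gene symbol, which cover 18193 genes, among 45101 on the array. Pancreatic islets from male mice aged 6 weeks were measured as 2 samples, 1 array each. The transgenic sample came from mice overexpressing miR-141 and miR-200c, and the control sample from C57BL/6 mice that the labels call Bl6 controls. The labels title the transgenic sample Ripmir and do not spell out the promoter, and how many mice gave islets to a sample is not stated. They name beta-cells as the source and islets as the tissue.

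IGF1 and IGF2 are secreted growth factors that act mainly through the IGF1 receptor, a tyrosine kinase related to the insulin receptor, and promote growth and survival of cells. In the extracellular fluid most IGF is held by binding proteins, which limit its access to the receptor and release it when they are cut by proteases such as the pappalysins. In islets the receptor is found on beta cells, while mesenchymal cells, blood vessel cells and macrophages are known sources of ligands and of several binding proteins.

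Values are RMA values on the log2 scale, and each difference is the transgenic minus the control value. With 1 array per group there is no replicate error and no test, so that higher and lower describe these 2 arrays. A floor was set at 5.76, the median over both arrays, and a probe set was taken as measured if it reached this floor on either array. Differences were read against a size rule of 2-fold, or 1 on the log2 scale. A level is compared only between the arrays, never between probe sets, since probe sets differ in how strongly they bind. Fewer cells of a type and less RNA per cell cannot be told apart in RNA of whole islets.

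The microRNAs that set the groups apart are shown with their seed, the bases 2 to 8 through which a microRNA pairs with its targets, in capitals (RefSeq, GRCm38.p6). miR-141-3p lies at chr6:124717917-124717938 and miR-200c-3p at chr6:124718324-124718346, both on the minus strand.
miR-141-3p: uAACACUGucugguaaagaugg
miR-200c-3p: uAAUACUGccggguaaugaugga
The seeds of the pair are not identical. miR-200a-3p has the seed of miR-141-3p, and miR-200b-3p and miR-429-3p have that of miR-200c-3p. Target sites in the IGF axis transcripts were not analysed here.

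Both ligand genes had higher values in the transgenic islets, and the receptor gene had nearly the same value on both arrays. Read by 1 probe set per gene, chosen by mean level, 3 of the binding protein genes (Igfbp3, Igfbp4 and Igfbp5) were at least 1.5-fold higher. The share of all 12143 measured genes higher by as much was 7.73%. Some further probe sets of Igfbp4 and the other one of Igfbp5 fell short of 1.5-fold, while both of Igfbp3 passed it. Of the 27 probe sets 21 were measured. Among these, 18 had a positive and 3 a negative difference, 6 were at least 2-fold higher and none was 2-fold lower. Of the 6, 3 reached the floor only on the transgenic array, 2 of Igf1 and 1 of Igfbp4, and so entered the count through the array on which they were high. Over all 20548 measured probe sets the share at least 2-fold higher was 2.15%, and the share at least 2-fold lower was 0.784%. The median difference of the 21 was 0.28, against 0.013 over all measured probe sets, of which 51.8% were positive. The other 6 probe sets lay below the floor on both arrays, and they include every probe set of Igfbp1, Igfbp2 and Igfbp6.

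**Figure D1:**
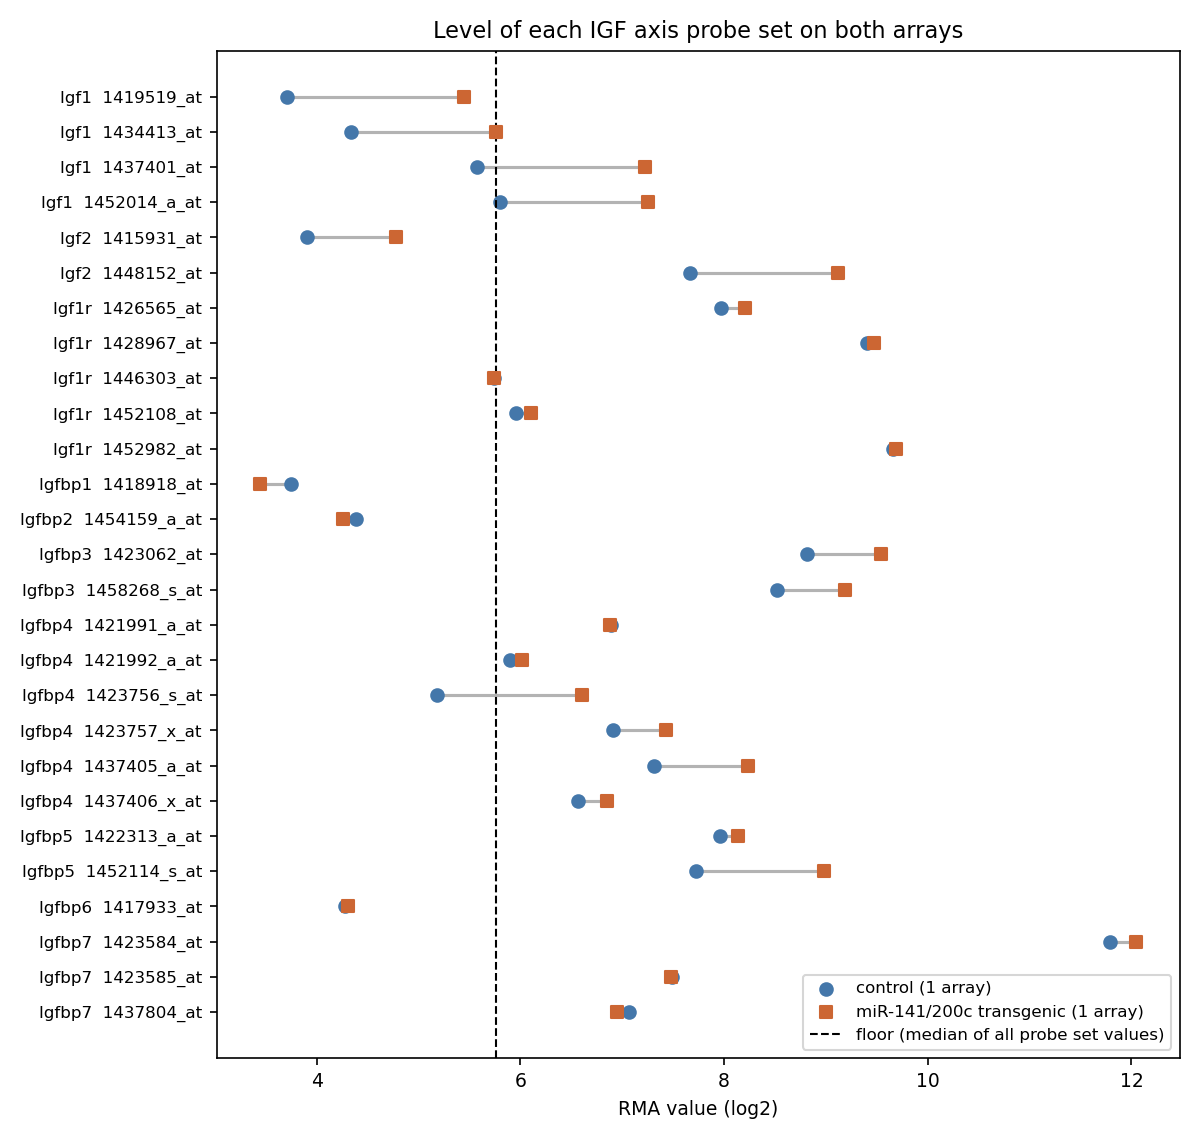
Log2 RMA value (x axis) of each of the 27 IGF axis probe sets (rows) on the control array (circles) and the transgenic array (squares), with the floor of 5.76 as a dashed line. The 4 probe sets of Igf1 are shifted to the right by a similar distance, those of Igf1r hardly move, and those of Igfbp4 move by unequal distances.

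With 1 probe set per gene, the one with the highest mean of both arrays, 7 of the 10 genes were measured. Igf1, Igf2 and Igfbp5 were higher by 2-fold or more, 3 of 7, and none was lower by that much. Over all 12143 measured genes 2.51% were as much higher and 0.511% as much lower. At 1.5-fold, Igfbp3 and Igfbp4 joined them, 5 of 7, where 7.73% of all measured genes were higher by as much. The median of the 7 was 0.92, and that of all measured genes 0.029. The genes were proposed with earlier results of these data known, so these counts are a description.

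Igf1 encodes insulin-like growth factor 1, made under the control of growth hormone in liver and locally in many tissues. Its probe set 1452014_a_at read 7.25 in the transgenic islets against 5.80 in the controls, a difference of 1.46 or 2.74-fold. The probe set 1437401_at read 7.23 and 5.58, a difference of 1.65, and 1434413_at read 5.76 and 4.34, a difference of 1.42. The remaining one, 1419519_at, was below the floor on both arrays, at 5.44 and 3.71, with a difference of 1.73. All 4 probe sets thus stood higher on the transgenic array, by amounts that lay close together.

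The 3 measured probe sets of Igf1 spanned 0.23 on the log2 scale, where genes with 3 measured probe sets had a median span of 0.37. Of 5180 genes with more than 1 measured probe set, 42 (0.811%) had all of them at least 2-fold higher, and Igf1 was 1 of these 42. Since 2 of its 3 measured probe sets reached the floor only on the transgenic array, where they were high, this standing is a description and supports nothing further. When measured probe sets were divided by mean signal into 10 bins of equal size, the 3 differences exceeded 98.0% to 99.2% of those in their bins. The same limit holds for these ranks. Only 1452014_a_at had a control value at the floor, by a margin of hundredths, so the background of the array limits the folds of this gene.

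Igf2 encodes insulin-like growth factor 2, a fetal growth factor expressed from the paternal allele. Its probe set 1448152_at read 9.11 in the transgenic islets against 7.67 in the controls, a difference of 1.44 or 2.72-fold, with both values above the floor. That difference exceeded 99.7% of those in its bin of signal. The other probe set, 1415931_at, was below the floor at 4.78 and 3.90, with a difference of 0.87 of the same sign. In RefSeq (GRCm38.p6) the neighbouring protein-coding genes of Igf2 on chromosome 7 are Ins2 and Mrpl23. Ins2, an insulin gene near the top of the scale, read 14.95 and 15.02, a difference of -0.075, and Mrpl23 read 9.83 on both arrays. The control value of Ins2 was the highest on either array, where a rise could not be read, so Mrpl23 alone of the neighbours could be compared with Igf2. The antisense gene Igf2os, at 6.37 and 6.39, had a difference of -0.022.

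Igf1r encodes the receptor for both ligands. The probe set 1452982_at read 9.68 in the transgenic islets against 9.66 in the controls, and 1428967_at read 9.47 and 9.41. The probe set 1426565_at read 8.21 and 7.97, the largest difference of the gene at 0.23, and 1452108_at read 6.10 and 5.96. The fifth, 1446303_at, was below the floor with the identical value of 5.74 on both arrays. The 4 measured differences ran from 0.028 to 0.23, a span of 0.21 against a median of 0.45 for genes with 4 measured probe sets. None passed 1.5-fold, and the sign of the leading probe set turned when the arrays were centred on their medians (-0.034).

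The binding proteins did not differ alike. Igfbp3 encodes the main carrier of IGF in blood, which is made by endothelial and mesenchymal cells. Its probe set 1423062_at read 9.54 in the transgenic islets against 8.81 in the controls, a difference of 0.73 or 1.66-fold. The second, 1458268_s_at, read 9.19 and 8.52, a difference of 0.67. The probe sets differed by only 0.062, where genes with 2 measured probe sets had a median span of 0.20, and both lay just inside the central 95% of their bin of signal, whose upper bound was 0.76.

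Igfbp5 encodes a binding protein of the extracellular matrix. Its probe set 1452114_s_at read 8.99 in the transgenic islets against 7.73 in the controls, a difference of 1.26 or 2.39-fold. The other, 1422313_a_at, read 8.14 and 7.96, a difference of 0.18. The span of 1.08 between them was larger than that of 99.0% of the 3158 genes with 2 measured probe sets. Averaged over both, Igfbp5 stood at 0.72, below the 2-fold rule, so its place among the genes past the rule rests on 1 probe set.

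Igfbp4 encodes a binding protein that inhibits IGF action and is the main substrate of the protease PAPP-A. It had 6 measured probe sets. The one with the highest mean, 1437405_a_at, read 8.23 in the transgenic islets against 7.31 in the controls, a difference of 0.92 or 1.90-fold. The largest difference was that of 1423756_s_at, 1.42, from 5.19 in the control, below the floor, to 6.61. The probe sets 1423757_x_at and 1437406_x_at had differences of 0.52 and 0.28.

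The smallest differences of Igfbp4 were those of 1421992_a_at, at 0.12, and 1421991_a_at, which read 6.88 and 6.89 with a difference of -0.0046. Both were annotated to the same transcript accession, and 1423756_s_at and 1423757_x_at to another. The 6 spanned 1.43 on the log2 scale, more than 95.2% of the 63 genes with 6 measured probe sets, and their median was 0.40. The higher value of Igfbp4 was therefore read by some of its probe sets and not by others. All probe sets of Igfbp4 and Igfbp5 carry the suffix _a, _s or _x, which the array's maker gives to probe sets that can bind more than a single transcript. In RefSeq the neighbours of Igfbp4 on chromosome 11 are Top2a and Tns4, and Tns4 gave no measured value. Top2a, a topoisomerase gene of dividing cells, read 10.22 and 8.83, a difference of 1.38. Other measured neighbours of members, outside the members themselves, ran from -0.44 (Spryd3, beside Igfbp6) to 0.52 (Adgrl3, beside Igfbp7).

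Igfbp7 encodes a secreted protein of vessels and matrix that binds IGF weakly. Its probe set 1423584_at read 12.04 in the transgenic islets against 11.79 in the controls, a difference of 0.26, inside the central 95% of the highest bin of signal (-0.60 to 0.51). The others, 1423585_at at 7.48 and 7.49 and 1437804_at at 6.95 and 7.07, had differences of -0.014 and -0.12. The average over the 3 was 0.041, so no direction is given for this gene.

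The remaining binding protein genes gave no reading above the floor. Igfbp1, the liver binding protein that insulin represses, read 3.45 in the transgenic islets against 3.75 in the controls. Igfbp2 read 4.26 and 4.39, and Igfbp6, which prefers IGF2, read 4.31 and 4.27. Each rests on a single probe set, and values this low say only that the floor was not reached on either array. The floor is a median of values and not a limit of detection.

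**Figure D2:**
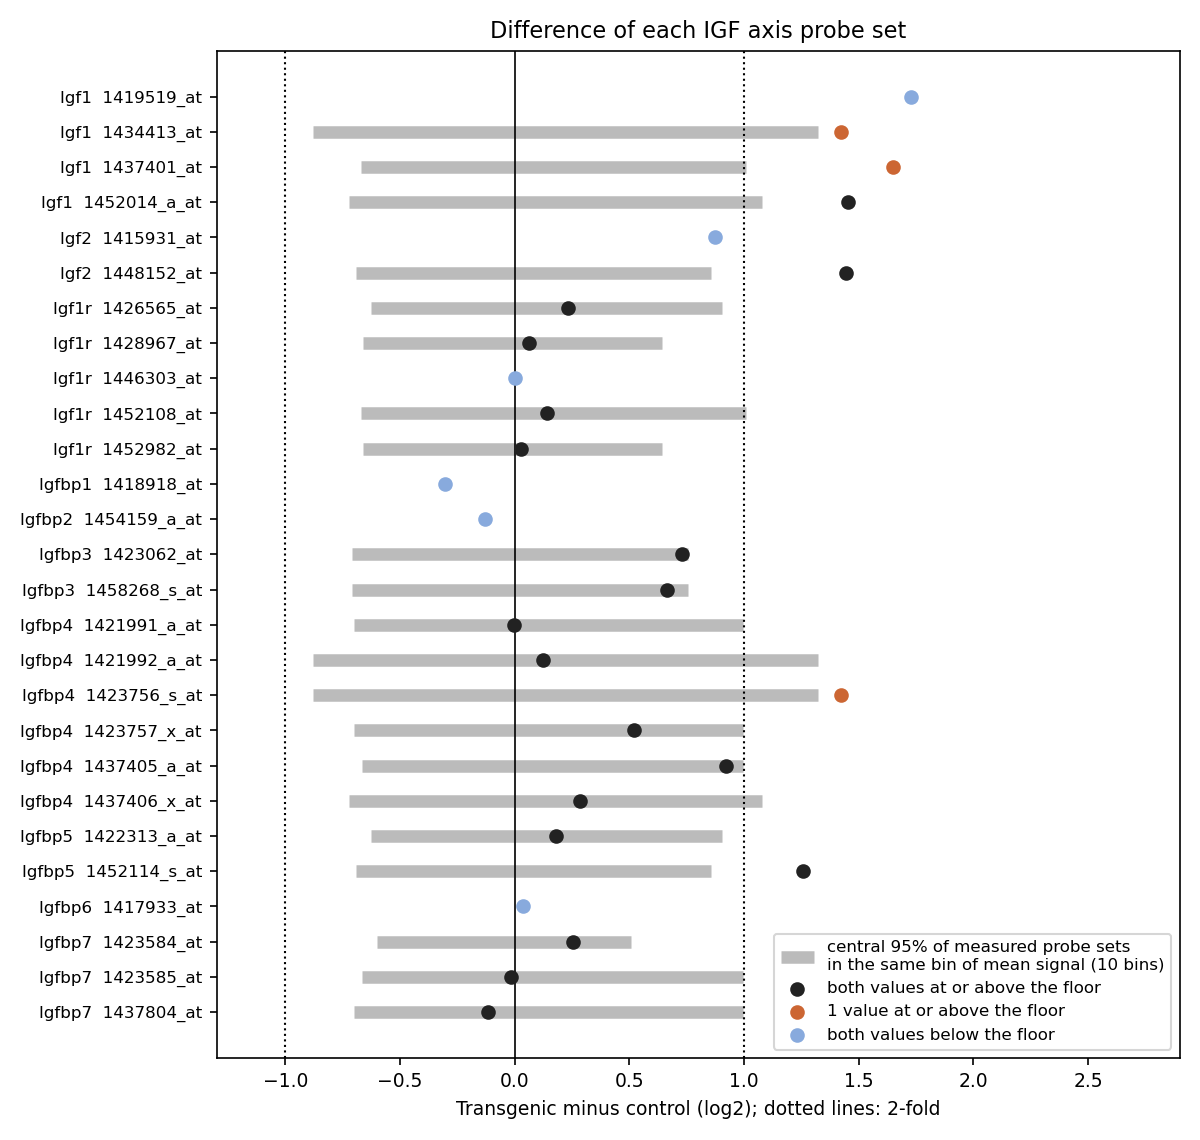
Transgenic minus control log2 difference (x axis) of each IGF axis probe set (rows), coloured by how many of its values reached the floor, with grey bars for the central 95% of measured probe sets in the same of 10 bins of mean signal and dotted lines at 2-fold. The 3 measured probe sets of Igf1 and 1 each of Igf2, Igfbp4 and Igfbp5 lie beyond their bars, 6 in all. Of the 6, 3 reached the floor only on the transgenic array, on which they were high. A central 95% by definition leaves a share of all measured probe sets beyond its bar.

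**Figure D3:**
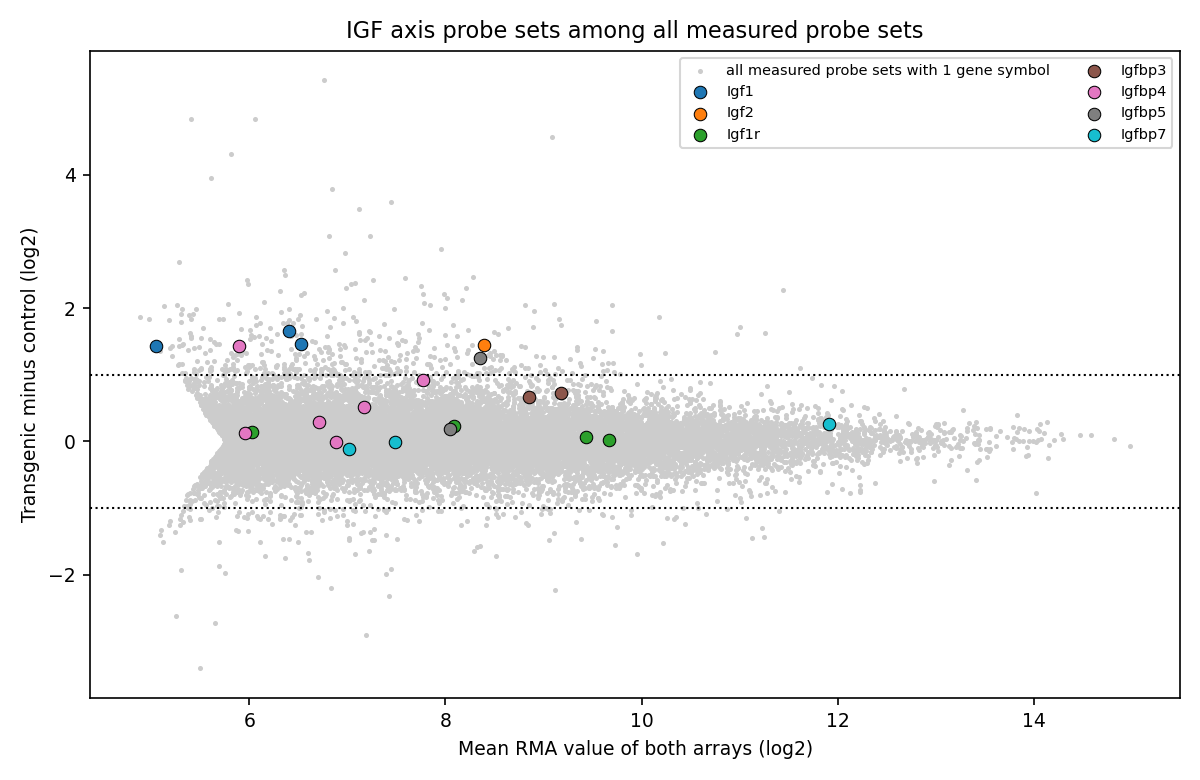
Difference (log2, y axis) against the mean log2 value of both arrays (x axis) for all 20548 measured probe sets (grey) and the 21 measured IGF axis probe sets (coloured by gene). No coloured point lies below the lower dotted line at 2-fold, and 6 lie above the upper one. Of the 6, 3 reached the floor only on the transgenic array. Over all measured probe sets 2.15% were at least 2-fold higher.

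Some members adjoin each other in the genome. Igfbp2 and Igfbp5 are neighbours on chromosome 1, and Igfbp1 and Igfbp3 on chromosome 11, by RefSeq. In each pair 1 gene was below the floor (Igfbp2, Igfbp1) and the other was at least 1.5-fold higher in the transgenic sample by its leading probe set (Igfbp5, Igfbp3). A gene below the floor gives no difference to read, so the genes of a pair could not be compared. Promoter windows of 250 bases before the start were found in RefSeq for all 10 members, with 14 starts. They were searched on both strands for the TATA box (TATAAA), the E-box bound by the Zeb repressors (CACCTG), the STAT core (TTCNNNGAA) and the core of the FOXO element (AAAACAA).

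The TATA box letters occurred in windows of Igfbp4 and Igfbp6 and in 12.4% of all 32851 windows. The Zeb letters occurred in Igfbp3 and in 17.2% of all windows, the FOXO letters in Igfbp1 and in 8.11%, and the STAT letters in no member and in 7.02%. No 2 of these matches overlapped in the members' windows. A match is a description of the sequence, and binding was not measured. No window of either ligand gene held any of the letters. The window of Igf1, the ligand gene with a single start here, is shown beside those of 3 binding protein genes with different letters. They end at the last base before the annotated start, and capitals mark the matched letters: Igf1 is at chr10:87860986-87861110 (plus strand), Igfbp1 at chr11:7197662-7197786 (plus strand), Igfbp3 at chr11:7213924-7214123 (minus strand) and Igfbp4 at chr11:99041119-99041243 (plus strand), GRCm38.p6.
Igf1: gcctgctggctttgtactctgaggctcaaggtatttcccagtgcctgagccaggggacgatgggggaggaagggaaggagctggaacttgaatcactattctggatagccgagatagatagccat
Igfbp1: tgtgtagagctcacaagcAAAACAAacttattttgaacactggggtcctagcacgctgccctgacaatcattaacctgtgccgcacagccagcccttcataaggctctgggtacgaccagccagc
Igfbp3: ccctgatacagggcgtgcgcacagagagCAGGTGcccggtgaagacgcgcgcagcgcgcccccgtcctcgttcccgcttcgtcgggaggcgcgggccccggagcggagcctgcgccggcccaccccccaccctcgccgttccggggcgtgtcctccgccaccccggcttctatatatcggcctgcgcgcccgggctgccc
Igfbp4: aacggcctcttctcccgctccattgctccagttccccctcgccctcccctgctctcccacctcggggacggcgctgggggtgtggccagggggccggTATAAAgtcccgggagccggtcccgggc
The matches begin 107 bases before the start in Igfbp1, 172 in Igfbp3, where the letters lie on the other strand, and 28 in Igfbp4.

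The other genes of the pathway were taken from a list of 55, written with earlier results of these data known. For 47 there was a probe set with that single symbol, and 44 were measured; 3 lay below the floor. Of these, 22 were positive and 22 negative, 1 was at least 2-fold higher, none was 2-fold lower, and the median was 0.0030. That share of 1 in 44 lies near the 2.51% of all measured genes.

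The gene past the rule was Pappa2, which encodes pappalysin 2, a protease that cuts the proteins of Igfbp3 and Igfbp5. Its single probe set read 11.43 in the transgenic islets against 10.08 in the controls, a difference of 1.35 or 2.55-fold, with both values well above the floor. The related Pappa was below the floor on both arrays. Stc1 and Stc2 encode stanniocalcins, which inhibit these proteases. Stc1 read 8.17 and 8.70, a difference of -0.52, and Stc2 had a difference of 0.14 at 6.19 and 6.05, with another probe set at -0.35. Htra1, a serine protease that also cuts binding proteins, read 7.49 and 7.02, and its probe sets had differences of 0.47 and 0.52. Igfals, which encodes the acid-labile subunit that joins IGF and Igfbp3 protein in a complex, had a difference of 0.39, from 7.93 in the control to 8.31.

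The receptors and adaptors named here stayed within 1.5-fold by their leading probe sets. Igf2r, the receptor that clears IGF2, read 9.42 and 9.19, with differences of 0.23 and 0.29 in its 2 probe sets, and Insr, the insulin receptor gene, read 8.11 and 8.07. Insrr, a related orphan receptor, had a difference of -0.56, at 8.39 and 8.95. Irs1, an adaptor of both receptors, had a difference of -0.40 at 8.37 and 8.77, and Irs2, the adaptor linked to beta cell mass, 0.023 at 8.08 and 8.06. Grb10, an inhibitory adaptor, stood at -0.31, with its other measured probe set at -0.24.

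Downstream, the furthest genes lay on both sides of 0. Pik3r1, a regulatory subunit of PI3-kinase, read 8.85 in the transgenic islets against 9.59 in the controls, a difference of -0.74, and 2 of its other probe sets stood at -0.86 and -0.69 while the last stood at 0.19. Pik3r3, another such subunit, read 9.47 and 8.80, a difference of 0.67. Eif4ebp1, a brake on translation that mTOR inactivates, read 10.14 and 10.76, with differences of -0.61, -0.51 and -1.06 in its 3 probe sets. Foxo4 stood at 0.62, with its other probe set at -0.44, and Foxo1, a forkhead factor restrained by insulin signalling, at 0.026 with readings of 9.26 and 9.23. In the growth hormone branch, which drives Igf1 in liver, Ghr, the hormone's receptor gene, read 11.94 and 11.91, and Socs2, a feedback inhibitor, had a difference of 0.34 with the other measured probe sets from -0.017 to 0.50.

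Markers of macrophages and of mesenchymal cells had mostly positive differences, as did every other marker list below except those of beta and lymphoid cells. The leading probe sets of all 7 measured members were positive too. Among them, the sign of Igf1r turned with median centring, and no direction is given for Igfbp7. Over all 12143 measured genes 54.2% were positive and 2.51% at least 2-fold higher, and the counts of the marker lists stand beside these shares. Of 15 listed macrophage markers 12 were measured and all 12 were positive, 3 of them at least 2-fold, with a median difference of 0.82 and a mean level of 8.82 in the transgenic islets against 8.02 in the controls. Lyz2, C1qa and Ptprc had differences of 0.26, 0.38 and 0.45. The macrophage markers Mrc1, Itgam and Cx3cr1 were below the floor. Markers of stellate cells, pericytes and fibroblasts were positive in 11 of 12 measured, 2 of them at least 2-fold, with a median of 0.77 and mean levels of 8.75 and 8.09. Rgs5, Sparc and Mgp had differences of 0.95, 0.40 and 0.70, and Col1a1 and Pdgfra were below the floor. These are cell types known to express Igf1, Igfbp3, Igfbp4 and Igfbp5. Endothelial cells make Igfbp3 as well, and their markers had a median of 0.082, with none of 9 measured at least 2-fold higher. The part of any of these cell types in the differences of the members was not tested.

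Beta cell markers, the labelled source, were near the top of the scale with mean levels of 12.50 in the transgenic islets against 12.58 in the controls, 3 of 8 positive and a median of -0.042. Ins2, Iapp and G6pc2 stood at -0.075, 0.036 and 0.28. Differences in this list ran from -0.81 for Ucn3, at 10.80 and 11.61, to 0.32 for Pdx1, at 10.41 and 10.09. Markers of the other endocrine cells had a median of 0.017 (5 of 7 positive), with Ppy at 0.094, Gcg at -0.058 and Ttr at -0.25. Endothelial markers had a median of 0.082 (8 of 9 positive), with Plvap at 0.16, Kdr at 0.016 and Emcn at 0.045. Acinar markers were near the top of the scale too, with mean levels of 13.94 in the transgenic islets against 13.84 in the controls. They had a median difference of 0.12 (5 of 6 positive), with Cela3b at 0.10, Cpa1 at 0.13 and Cela1 at 0.19.

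Ductal markers had a median of 0.22 (4 of 4 positive), with Krt7 at 0.085, Krt19 at 0.32 and Muc1 at 0.26. Lymphoid markers had a median of -0.14 (2 of 6 positive), with Ms4a1 at 0.040, Cd79b at -0.18 and Cd3e at -0.14. Hepatocyte genes had a median of 0.75 over the 4 measured (3 of 4 positive) and mean levels of 6.91 in the transgenic islets against 5.96 in the controls. Tat stood at 0.11, Apoa1 at 1.38 and Fgb at -0.40. Apob, named after its value was seen, stood at 2.69 from a control value of 3.94 below the floor, and Alb and Cyp2e1 were below the floor on both arrays. On the whole array, the poly-A spike controls were higher in all 24 probe sets, with a median difference of 1.51, and the part of such array differences in the members' values was not tested.

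**Figure D4:**
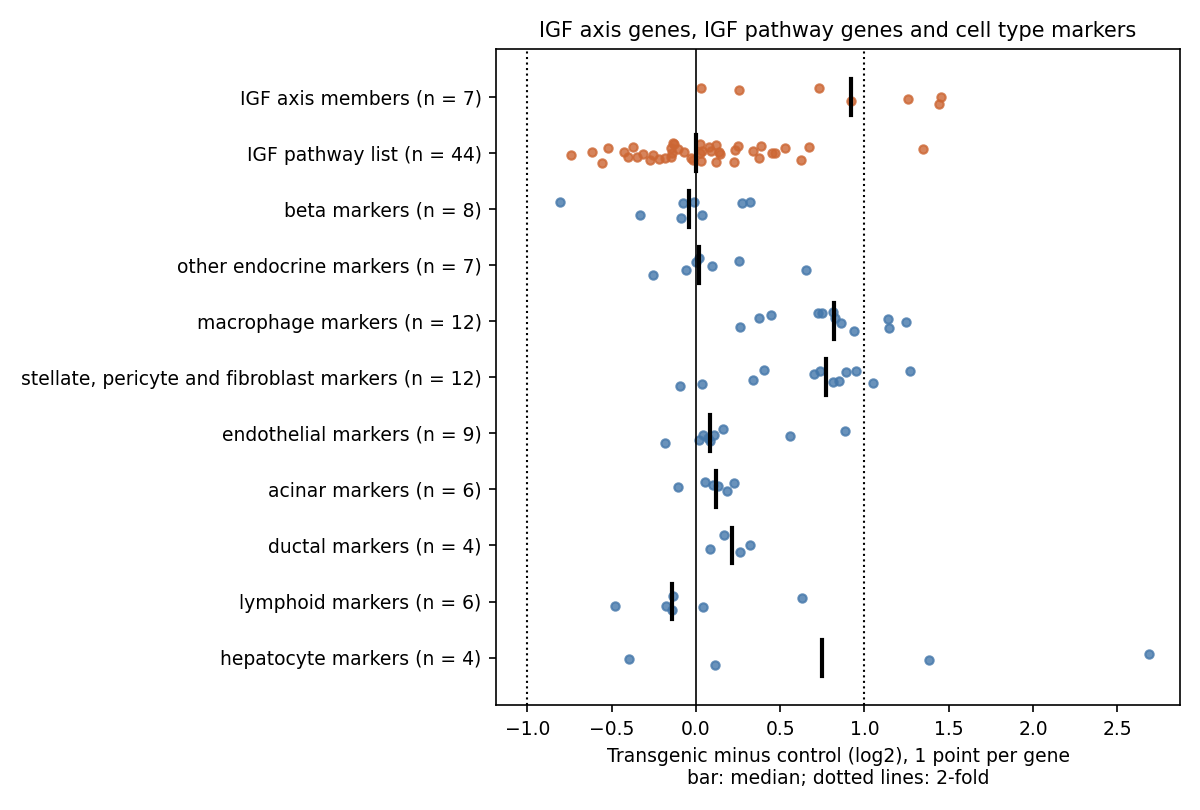
Transgenic minus control log2 difference (x axis) of each measured gene of the IGF axis (7), the IGF pathway list (44) and each cell type marker list (rows), with a bar at the median and dotted lines at 2-fold. The medians of the IGF axis (0.92), the macrophage (0.82), the stellate, pericyte and fibroblast (0.77) and the hepatocyte markers (0.75, over 4 genes) lie to the right, and that of the pathway list (0.0030) at 0.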

How the data were processed

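Total RNA of islets was hybridised to Affymetrix mouse arrays, 1 array for each of 2 samples, grouped by the genotype in the labels. The deposited values are log2 expression values that the authors made with RMA in Affymetrix Expression Console, per the submitters' processing notes (no version was given there, nor whether other arrays were processed with these). RMA compresses small differences near background and gives no detection call. The number of arrays limits the precision.

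Probe sets were named by the platform's table, with symbols updated through Entrez identifiers to RefSeq (GRCm38.p6), which matched 34741 of 34945 probe sets with 1 symbol; 932 had several and 9160 none, and 64 were array controls. Differences, counts and the central 95% in 10 bins of mean signal were computed with Python 3.11.15, numpy 2.4.6 and pandas 2.3.3. The 2-fold count was checked on simulated data. Of 200 probe sets shifted by 1.5 among 20548, 95% passed 2-fold, as did 2.15% of the others. With a shift of 0.5, 6.5% of the shifted ones passed. These shares follow from the shift and the rule, so they check the code only. No p-value was computed. Named genes were all 10 members, the pathway genes past 2-fold, furthest in each direction or nearest to the members in role, and up to 3 markers per list by mean level. Ucn3 and Pdx1 were added as the lowest and highest differences of the beta cell list. The members and lists were chosen with earlier results of these data known. Alternatives were other rules for choosing probe sets, floors, a 1.5-fold rule, median centring, a repeated quantile normalization and subtraction of a lowess trend with a span of 0.3 (statsmodels 0.14.6).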

Additional observations from a re-analysis of the deposited data

How the results depend on the processing

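With 1 array per group no replicate could be left out. No paired analysis was possible because each group had 1 array. With a floor at the 75th percentile (7.81), 10 member probe sets were measured and 2 were 2-fold higher, of Igf2 and Igfbp5. Both had control values below this floor (7.67 and 7.73), and so entered the count through the array on which they were high. Under this floor 3 members had more than 1 probe set and Igf1 was no longer measured. Over the whole array it left 168 genes higher and 39 lower, with 209 and 77 probe sets. Without the _s, _x and _a probe sets 3 members had more than 1 probe set, 2 of these with a single sign, and Igfbp4 and Igfbp5 had none left. With a 1.5-fold rule 5 member genes were higher, the pathway list had 3 higher and 2 lower, and the array had 939 genes higher and 381 lower, with 1432 and 853 probe sets. With probe sets averaged per gene 38 genes were lower. Igf2 stayed past 2-fold under every alternative, from 1.16 with probe sets averaged to 1.44. The floors, the 1.5-fold rule and leaving out probe sets by suffix kept the same probe set of Igf2, so its value could not change under them. The average of 1.16 includes 1415931_at, which was below the floor on both arrays. Averaging ended the 2-fold call of Igfbp5 (0.72); no other member or pathway gene measured under an alternative lost its call.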

Other observations

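Outside the 10 members, genes for proteins that bind IGF2 messenger RNA were on the array. Igf2bp3, a fetal RNA-binding protein, read 8.87 in the transgenic islets against 8.62 in the controls, a difference of 0.25, and its other measured probe set, 1433732_x_at, 0.64 from a control value of 5.41 below the floor. The only measured probe set of Igf2bp1, 1459825_x_at, read 7.18 and 7.36, a difference of -0.18. The gene's other probe sets were below the floor on both arrays. The antisense gene Igf1os was below the floor on both arrays, at 5.15 and 5.23, and no difference is read from it. A probe set shared by Airn, the antisense transcript that silences Igf2r in cis, and Igf2r itself read 6.02 and 6.41, a difference of -0.39 where both probe sets of Igf2r alone were positive. These genes were named after their values were seen.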
